A study of Rattus norvegicus with 23 samples.

Results

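The miR-191 and miR-425 cluster comprises the mature miRNAs cut from a pair of neighbouring hairpins, plus miR-191b from the opposite strand. Every entry of the sRNAbench read-count table named miR-191a, miR-191b or miR-425, of either arm, was taken, which gave 5 of 413 entries: rno-miR-191a-5p, rno-miR-191a-3p, rno-miR-191b, rno-miR-425-5p and rno-miR-425-3p, written below without the prefix for rat. Of these, 4 passed the filter on low counts, as did 269 entries in all, and miR-191b did not. The libraries were of small RNA from PC12, a male rat pheochromocytoma line, grown on poly-L-lysine with horse and fetal bovine serum. The α1ACT line stably expressed α1ACT, with 11 glutamine repeats and a C-terminal 3xFlag tag, from pcDNA3, and the vector line stably carried empty pcDNA3. Both lines had been selected with G418, and the number of clones behind each is not stated. Splitting of the cells started the clock, and libraries were made at 6 h, 24 h, 3 d and 10 d, with 3 per line and time except 2 for the vector line at 6 h, 23 in all. Nothing in the labels says that replicates came from separate cultures, so the p-values measure the spread between these libraries, which may be technical, and a difference between the lines cannot be told apart from a difference between clones.

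A miRNA hairpin is cut by Drosha and Dicer into a duplex, of which mostly 1 strand, the guide, is kept in an Argonaute protein while the other, the passenger, is degraded. The guide pairs through its seed with sites in messenger RNAs and lowers their translation and stability. miR-191 and miR-425 lie together within the gene Dalrd3 in mammals, miR-191-5p is widely used as a reference in miRNA qPCR, and miR-425-5p targets the atrial natriuretic peptide gene NPPA in humans. α1ACT is a transcription factor translated from the calcium channel gene CACNA1A, and expansion of its glutamine repeat is linked to spinocerebellar ataxia type 6 in humans.

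The mature sequences are shown because the seed, bases 2 to 8 and printed in capitals, sets which targets each member can pair with. They are RefSeq sequences on GRCr8, all 5 matched by name, and are written 5′ to 3′.
miR-191a-5p: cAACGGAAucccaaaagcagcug
miR-191a-3p: gCUGCACUuggauuucguuccc
miR-191b: gAACGAAAuccaagugcagcu
miR-425-5p: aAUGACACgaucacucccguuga
miR-425-3p: aUCGGGAAuaucguguccgcc
No seed was shared between members. Among 693 rat mature names searched, the seed of miR-191a-3p was found in 1 other, miR-17-2-3p, and the other 4 seeds in none. The hairpins are shown because they place the arms that the counts compare, with the mature arms in capitals.
Mir191: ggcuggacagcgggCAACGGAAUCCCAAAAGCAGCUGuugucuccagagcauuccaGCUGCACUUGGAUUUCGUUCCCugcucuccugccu
Mir425: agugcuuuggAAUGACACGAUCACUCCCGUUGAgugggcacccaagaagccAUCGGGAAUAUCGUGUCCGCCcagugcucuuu
Mir191 lies at chr8:118142627-118142717 and Mir425 at chr8:118143084-118143166, both on the plus strand of GRCr8 with 366 bases between them, and both within the span of Dalrd3 on the same strand. The table used does not give exons or introns. miR-191b comes from Mir3555, at chr8:118142611-118142730 on the minus strand, which covers the whole Mir191 hairpin in antisense. It is shown above, and its 21 bases lie opposite miR-191a-3p over 20 positions.

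**Figure D1:**
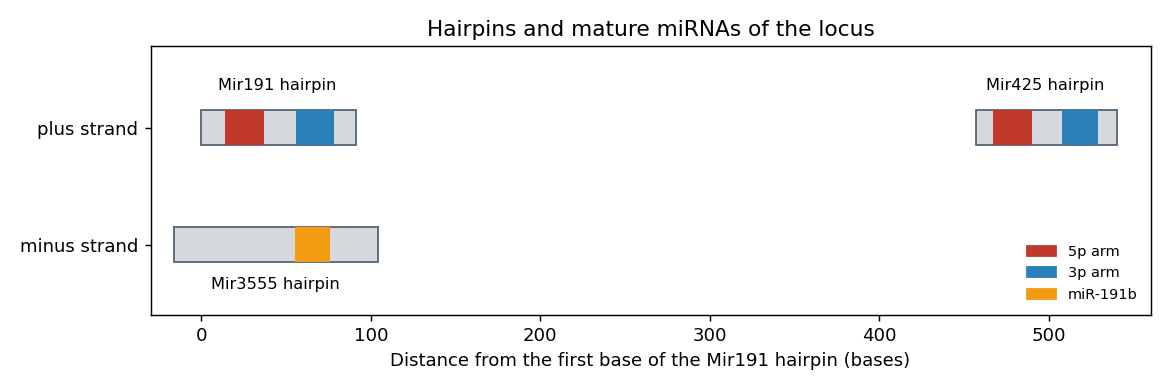
Map of the 3 hairpins by strand, drawn to scale, with the x axis in bases from the first base of the Mir191 hairpin. Coloured blocks are the mature miRNAs; Mir3555 covers all 91 bases of Mir191 on the other strand.

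Total counts per library ran from 448557 in vector 3 d replicate 1 to 5070120 in α1ACT 10 d replicate 1, and the common biological coefficient of variation was 16.1%. The second deposited table, made with Chimira, paired 21 of 23 libraries with the column of the same name over 154 abundant entries, and paired vector 6 h replicate 2 with vector 10 d replicate 2 crosswise. Which table names this pair rightly was not tested, so the members' calls that changed with the columns exchanged or with both left out are given with those values. All 6 neuroendocrine marker miRNAs were in the table, summing to 146900–210100 counts per 1000000 (CPM) in the α1ACT line and 166100–221800 CPM in the vector line. Most of this was miR-375-3p (mean 146800 CPM) and miR-182 (31340 CPM), while miR-7a-5p had 5.88 CPM and miR-7b 0.392 CPM, with 0 counts in 15 libraries. Of the mesenchymal and endothelial markers, 4 of 6 were in the table, summing to 327.7–816.6 CPM in the α1ACT line and 423.9–1349 CPM in the vector line, mostly from miR-143-3p. Of 6 blood markers, summed levels reached 10.73 CPM in the α1ACT line and 8.528 CPM in the vector line, with miR-142-3p and miR-223-3p at 0 in 22 of 23 libraries. The oligodendrocyte marker miR-219a-5p ranged over 6.135–12.1 CPM in the α1ACT line and 4.483–12.04 CPM in the vector line, the muscle markers reached 0.383 CPM in the α1ACT line and 0 in the vector line, and the liver marker was not among the entries.

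rno-miR-191a-5p, the guide arm, dominated the cluster, with 89.7% to 96.3% of the members' counts in every library. Its level was 9702–18240 CPM, a mean of 13680 CPM or 1.34% of all counts, which put it 14th of 269 tested entries. miR-425-5p followed at 645.8–1269 CPM with a mean of 881.3 CPM, 67th of 269. The passenger arms were far lower, with means of 28.6 CPM for miR-191a-3p and 25.6 CPM for miR-425-3p. The 5p arm thus took 99.7% to 99.9% of the miR-191a counts and 96.0% to 98.1% of the miR-425 counts, library by library. CPM values here carry trimmed-mean (TMM) scaling and, since mature miRNAs have nearly one length, compare levels between members, although ligation preferences differ between sequences and were not tested. In bulk RNA, fewer cells with a miRNA and less of it per cell cannot be told apart.

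miR-191b, from the antisense hairpin, was near the limit of detection. It had 0 to 9 counts per library and no counts in 8 of 23 libraries, a mean of 0.871 CPM. By group its counts summed to 4, 12, 4 and 16 in the α1ACT line and 0, 6, 7 and 13 in the vector line, in order of time. The Chimira table gave it 2 counts in vector 6 h replicate 1 and 3 in replicate 2. The 0 counts here, and the limits that follow, are thus those of sRNAbench only. Where a library had no count, the 3-count limit allowed up to 6.73 CPM in the shallowest library, vector 3 d replicate 1, and 1.25 to 1.98 CPM in the other 7. No direction can be read from these counts, and intervals and limits of this kind cover counting error only.

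**Figure D2:**
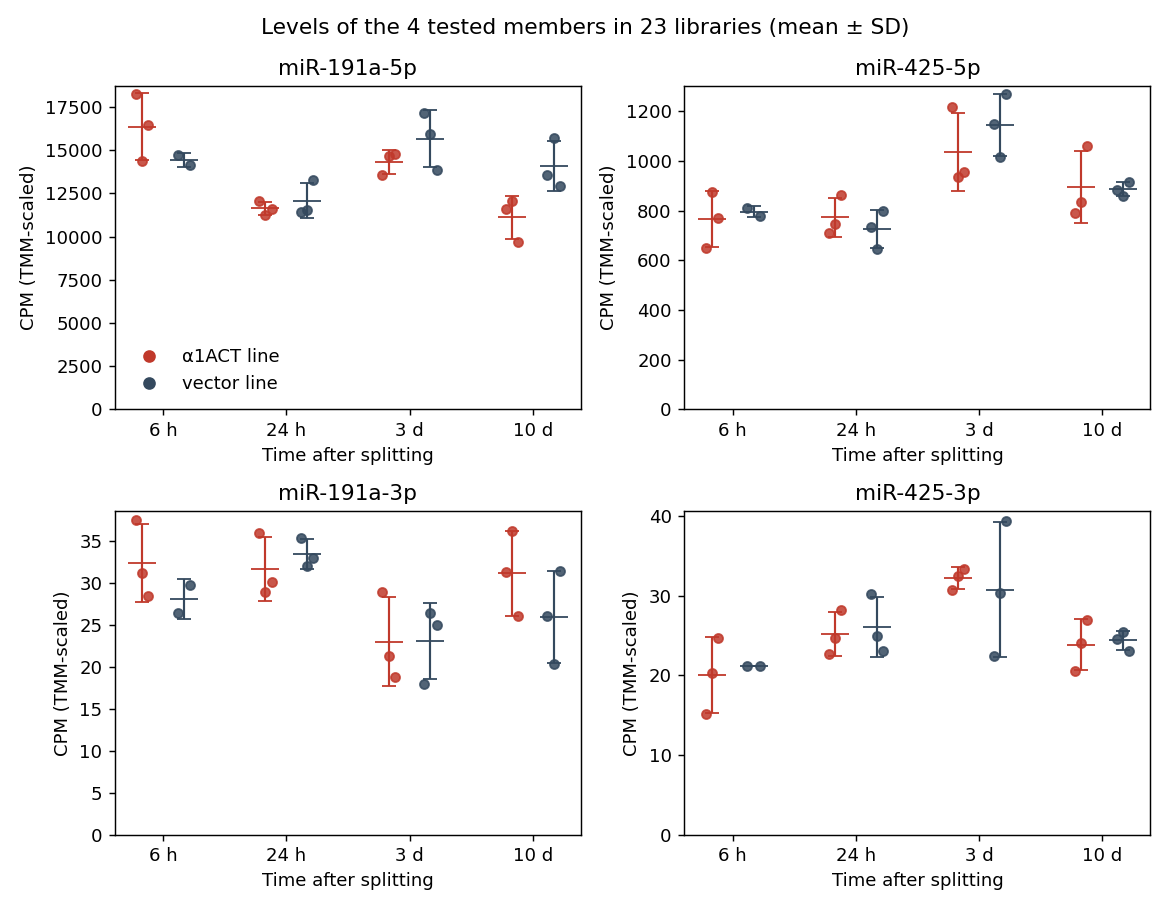
TMM-scaled CPM of the 4 tested members (y axis, from 0) by time after splitting, with 1 point per library, α1ACT left of vector, and bars for mean and SD. miR-191a-5p lies at 9702–12080 CPM in α1ACT libraries at 10 d and at 12920–15690 CPM in vector libraries, while the other members' lines overlap at every time.

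α1ACT expression was not accompanied by a called change in any member. Averaged over the 4 times, 0 of 4 tested members were called, against 34 of 269 entries (12.6%) over the table, or 18 entries with the doubtful vector pair exchanged and 16 with it left out. That count was also 16 without vector 6 h replicate 2, 20 without α1ACT 3 d replicate 3, 21 without α1ACT 6 h replicate 3 or α1ACT 24 h replicate 1, and 22 without α1ACT 6 h replicate 1, vector 24 h replicate 2 or vector 10 d replicate 2. miR-191a-5p averaged 13360 ± 2448 CPM in the α1ACT line (SD, n = 12) and 14020 ± 1781 CPM in the vector line (n = 11). Its fitted log2 fold change was −0.08 with a 95% interval of −0.19 to 0.02 (Benjamini-Hochberg adjusted p = 0.343 by edgeR's quasi-likelihood fit), and 0.01 with upper-quartile scaling. The log2 fold change of miR-425-5p was −0.02 (interval −0.16 to 0.11), but 0.07 with upper-quartile scaling and 0.05 with library totals. The passenger arms had wider intervals, −0.13 to 0.30 around 0.08 for miR-191a-3p and −0.26 to 0.17 around −0.04 for miR-425-3p, and the estimate for miR-425-3p was 0.04 with upper-quartile scaling and 0.02 with library totals. Over the whole table the split of the 34 calls also moved with scaling, being 18 higher and 16 lower with TMM, 43 and 5 with upper-quartile scaling, and 36 and 5 with library totals.

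At 10 d the lines differed most for miR-191a-5p. The α1ACT libraries had 11570, 12080 and 9702 CPM, against 13590, 15690 and 12920 CPM in the vector libraries. All 3 α1ACT values lay below all 3 vector values, but how many of the 269 entries separated in this way was not counted. The log2 fold change was −0.34 (SE 0.11), but edgeR's Benjamini-Hochberg adjusted p was 0.123, so it did not pass, and over 35 alternatives the estimate ran from −0.39 to −0.19 with no call. At that time 4 of 269 entries (1.49%) were called and 0 of 4 members.

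At the earlier times the lines overlapped for miR-191a-5p. It averaged 16370 ± 1939 CPM in α1ACT (n = 3) and 14440 ± 383 CPM in vector (SD, n = 2) at 6 h, a log2 fold change of 0.18 with an interval of −0.06 to 0.42. It averaged 11640 ± 399 CPM in α1ACT and 12070 ± 1025 CPM in vector at 24 h (SD, n = 3 each), a log2 fold change of −0.05 that was 0.06 with upper-quartile scaling or library totals. At 3 d the averages were 14330 ± 682 CPM in α1ACT and 15660 ± 1655 CPM in vector, a log2 fold change of −0.13 (interval −0.34 to 0.08). By the edgeR quasi-likelihood test, 0 of 269 entries (0%) passed at 6 h, where 30 had an unadjusted p under 0.05, DESeq2 called 3, limma-voom 0 and edgeR 7 without α1ACT 6 h replicate 2. At 24 h and at 3 d 1 of 269 (0.372%) passed, in neither case a member.

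The lines were also close for miR-425-5p, the guide of the other hairpin. At 6 h the α1ACT libraries had 651, 875.5 and 768.4 CPM, against 812.5 and 779.5 CPM in the vector libraries. At 3 d the α1ACT libraries had 1216, 935 and 954.1 CPM, against 1150, 1016 and 1269 CPM in the vector libraries. Its log2 fold changes were −0.06 at 6 h (0.12 with upper-quartile scaling), 0.09 at 24 h and −0.15 at 3 d. At 10 d it was 0.01, or −0.01 with upper-quartile scaling, and each 95% interval spanned 0. The widest of these, at 6 h, was −0.34 to 0.23, and the lines' ranges overlapped at every time.

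**Figure D3:**
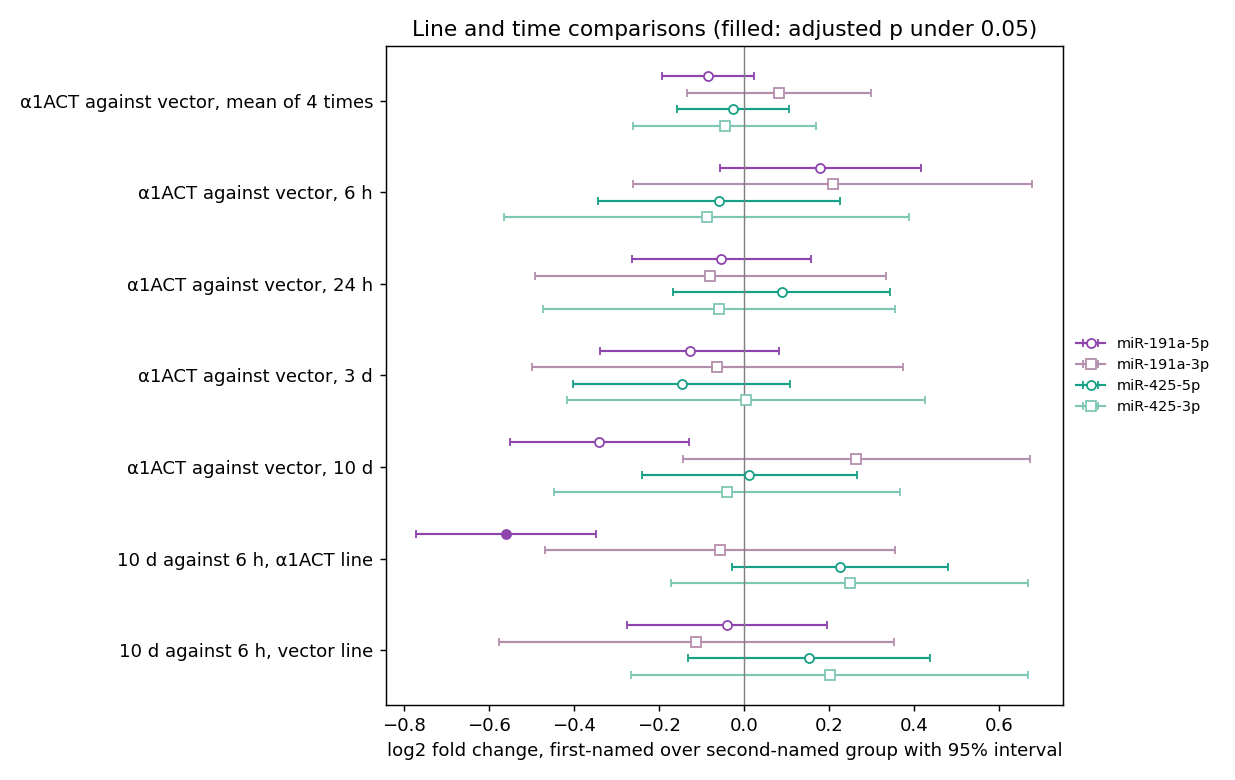
Fitted log2 fold changes (x axis) of the 4 tested members, first-named over second-named group, with 95% intervals; rows are comparisons and filled symbols have an adjusted p under 0.05. Only miR-191a-5p at 10 d against 6 h in the α1ACT line is filled, at −0.56, and all other intervals reach across 0 except that of miR-191a-5p between the lines at 10 d.

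Between 10 d and 6 h after splitting, miR-191a-5p was called in the α1ACT line, and miR-425-5p was called in neither line. The log2 fold change of miR-425-5p was 0.23 in the α1ACT line (edgeR adjusted p = 0.205) and 0.15 in the vector line (0.546). In the vector line its 10 d and 6 h values did not overlap, nor did those of miR-425-3p, also without a call. Whether time moved the members more than the line did was not tested. In the α1ACT line miR-191a-5p had 11570, 12080 and 9702 CPM at 10 d, against 18240, 14370 and 16490 CPM at 6 h. All 10 d values lay below all 6 h values, but how many of the 269 entries separated in this way was not counted. The log2 fold change was −0.56 (SE 0.11; edgeR quasi-likelihood, Benjamini-Hochberg adjusted p = 0.00027), and all 35 alternatives called it, between −0.64 and −0.48. It was 1 of 4 members called, where 73 of 269 entries (27.1%) were called in either direction and 43 (16%) lower, with a split of 30 higher and 43 lower that became 16 and 48 with upper-quartile scaling.

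In the vector line miR-191a-5p had 13590, 15690 and 12920 CPM at 10 d, against 14710 and 14170 CPM at 6 h, and the values overlapped. The log2 fold change was −0.04 with an interval of −0.27 to 0.20 (edgeR, adjusted p = 0.864). It was 0.13 with upper-quartile scaling, −0.165 with the doubtful vector pair exchanged and −0.281 with that pair left out. Here 0 of 4 members and 32 of 269 entries (11.9%) were called, and that count was 0 with the doubtful vector pair exchanged, 11 with it left out and 16 without vector 6 h replicate 2. The Chimira table also called 0. The 32 calls split into 14 higher and 18 lower, but 43 and 17 with upper-quartile scaling and 5 and 27 with library totals. The test that the lines differ over time, the interaction of line and time, gave miR-191a-5p an unadjusted p of 0.0275 and an adjusted p of 1 (edgeR quasi-likelihood F test), so a difference between the lines in this change was not shown. That test called 0 of 269 entries (0%), with 10 at an unadjusted p under 0.05, 2 by DESeq2 and 0 by limma-voom.

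Tested for any change over the 4 times, both guide arms passed in both lines, and neither passenger arm did. The adjusted p of the edgeR quasi-likelihood F test was 0.000353 in the α1ACT line and 0.0417 in the vector line for miR-191a-5p, and 0.0179 in the α1ACT line and 0.00164 in the vector line for miR-425-5p. This was 2 of 4 members in each line, beside 114 of 269 entries (42.4%) in the α1ACT line and 99 of 269 (36.8%) in the vector line, so the members' share was near that of the table. The vector call of miR-191a-5p was lost in 15 of 35 alternatives, among them the pair exchanged (adjusted p = 0.0561) and the leaving out of vector 24 h replicate 1 (0.155) or vector 3 d replicate 1 (0.122). The α1ACT call of miR-425-5p was lost without α1ACT 3 d replicate 1 (0.132) and with upper-quartile scaling (0.15).

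The contrasts between neighbouring times, chosen after the values were seen, locate these changes. miR-191a-5p was lower at 24 h than at 6 h in the α1ACT line, with 12040, 11250 and 11620 CPM at 24 h against 18240, 14370 and 16490 CPM at 6 h. The log2 fold change was −0.49 (edgeR adjusted p = 0.00243, and 0.0533 without α1ACT 6 h replicate 1). In the vector line it was −0.26 (adjusted p = 0.351), with 11440, 11520 and 13250 CPM at 24 h against 14710 and 14170 CPM at 6 h. That step had 1 of 4 members and 28 of 269 entries (10.4%) called in the α1ACT line, and 0 of 4 and 3 of 269 (1.12%) in the vector line. The 28 became 18 without α1ACT 6 h replicate 1 or α1ACT 24 h replicate 2, 43 without α1ACT 6 h replicate 2 and 16 with the doubtful vector pair exchanged. The 3 became 0 with the pair exchanged, with it left out or without vector 6 h replicate 2.

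From 24 h to 3 d both guide arms rose in both lines. miR-425-5p had 1216, 935 and 954.1 CPM at 3 d, against 709.2, 747.2 and 861.9 CPM at 24 h, in the α1ACT line, and 1150, 1016 and 1269 CPM at 3 d, against 734.2, 645.8 and 799.4 CPM at 24 h, in the vector line. No 3 d library lay below a 24 h library of its line, but how many of the 269 entries separated in this way was not counted. Its log2 fold changes were 0.42 (edgeR adjusted p = 0.0178) in the α1ACT line and 0.66 (0.000473) in the vector line, and the call in the α1ACT line was lost without α1ACT 24 h replicate 1 (0.108), α1ACT 24 h replicate 2 (0.0805) or α1ACT 3 d replicate 1 (0.156), and with upper-quartile scaling (0.29, adjusted p = 0.119). For miR-191a-5p the log2 fold changes were 0.30 (edgeR adjusted p = 0.0432) in the α1ACT line and 0.38 (0.0106) in the vector line. The α1ACT call held in 14 of 35 alternatives, being lost with the leaving out of any 1 of 16 libraries and with the doubtful vector pair exchanged (0.055), and the vector call was lost without vector 24 h replicate 1 (0.0644) or vector 3 d replicate 1 (0.0724), and with upper-quartile scaling (0.28, adjusted p = 0.0992). This step called 2 of 4 members in each line, beside 60 of 269 entries (22.3%) in α1ACT and 64 of 269 (23.8%) in vector. The 60 became 34 without α1ACT 24 h replicate 1 and 39 without α1ACT 24 h replicate 2.

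At 10 d against 3 d the estimates of both guide arms were negative in both lines, and 1 of these arms was called in each line. In the α1ACT line it was miR-191a-5p, with a log2 fold change of −0.37 (edgeR adjusted p = 0.0108), lost without α1ACT 3 d replicate 3 (0.0513) or α1ACT 10 d replicate 3 (0.0957) and with upper-quartile scaling (−0.25, adjusted p = 0.108), while miR-425-5p had −0.21 (0.211). In the vector line it was miR-425-5p, with −0.37 (edgeR adjusted p = 0.0366), while miR-191a-5p had −0.15 (0.296), or 0.08 with upper-quartile scaling. The miR-425-5p call was lost with the doubtful vector pair left out (0.0686) and without vector 3 d replicates 1 (0.0675) or 3 (0.155) or vector 10 d replicates 1 (0.0581) or 3 (0.0542). It was also lost with upper-quartile scaling (−0.14, adjusted p = 0.47) and with TMM computed without the members (−0.34, adjusted p = 0.0532). That 1 of 4 members passed in each line compares with 88 of 269 entries (32.7%) in α1ACT and 68 of 269 (25.3%) in vector, which became 44 with the pair exchanged or without vector 10 d replicate 3. Whether the lines differ in this step was not tested.

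The passenger arms did not pass in any comparison, at 8 to 163 counts per library for miR-191a-3p and 10 to 147 for miR-425-3p. miR-191a-3p, the passenger of miR-191a-5p, averaged 22.95 ± 5.31 CPM in α1ACT and 23.1 ± 4.5 CPM in vector at 3 d, and 31.6 ± 3.8 CPM in α1ACT and 33.4 ± 1.8 CPM in vector at 24 h (SD, n = 3 each). miR-425-3p averaged 32.2 ± 1.4 CPM in α1ACT and 30.7 ± 8.5 CPM in vector at 3 d, and 25.2 ± 2.8 CPM in α1ACT and 26.1 ± 3.7 CPM in vector at 24 h. Between these times the values of miR-191a-3p did not overlap in either line, and those of miR-425-3p overlapped in vector but not in α1ACT. The nearest to a call was miR-425-3p over time in the α1ACT line (edgeR adjusted p = 0.0547), which 8 of 35 alternatives called.

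Ratios within a library do not depend on how libraries are scaled. The 5p to 3p ratio of miR-191a was 469, 690 and 790 in α1ACT libraries at 3 d, against 335, 389 and 387 at 24 h. In vector libraries it was 956, 605 and 557 at 3 d, against 323, 360 and 403 at 24 h. All 6 values at 3 d exceeded all 6 at 24 h. The mean log2 ratio differed by 0.82 (exact two-sided permutation test within each line, p = 0.005, the smallest it can give, adjusted over 9 ratio tests to 0.045). The comparison was chosen after the values were seen, and without any 1 of the 3 α1ACT 24 h libraries the adjusted p was 0.09. In vector 3 d replicate 1, the highest ratio, the 3p arm had 8 counts.

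Other ratios did not pass. The 5p to 3p ratio of miR-191a differed by −0.17 on the log2 scale between the lines (exact permutation p = 0.166, adjusted 0.299), and by −0.20 between 10 d and 6 h (p = 0.345, adjusted 0.517). The second of these was −0.49, with an adjusted p of 0.0225, when the doubtful vector pair was exchanged. For miR-425 the 5p to 3p ratio had geometric means of 30.2–37.8 in the α1ACT groups and 27.5–36.8 in the vector groups, without a detectable difference by line or time. The ratio of miR-191a-5p to miR-425-5p, the guides of the locus, had geometric means of 12.5 in α1ACT and 15.8 in vector at 10 d, and 21.4 in α1ACT and 18.1 in vector at 6 h. The log2 difference between 10 d and 6 h was −0.49 (exact permutation p = 0.02, adjusted 0.09), and −0.49 with an adjusted p of 0.045 with the pair exchanged.

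**Figure D4:**
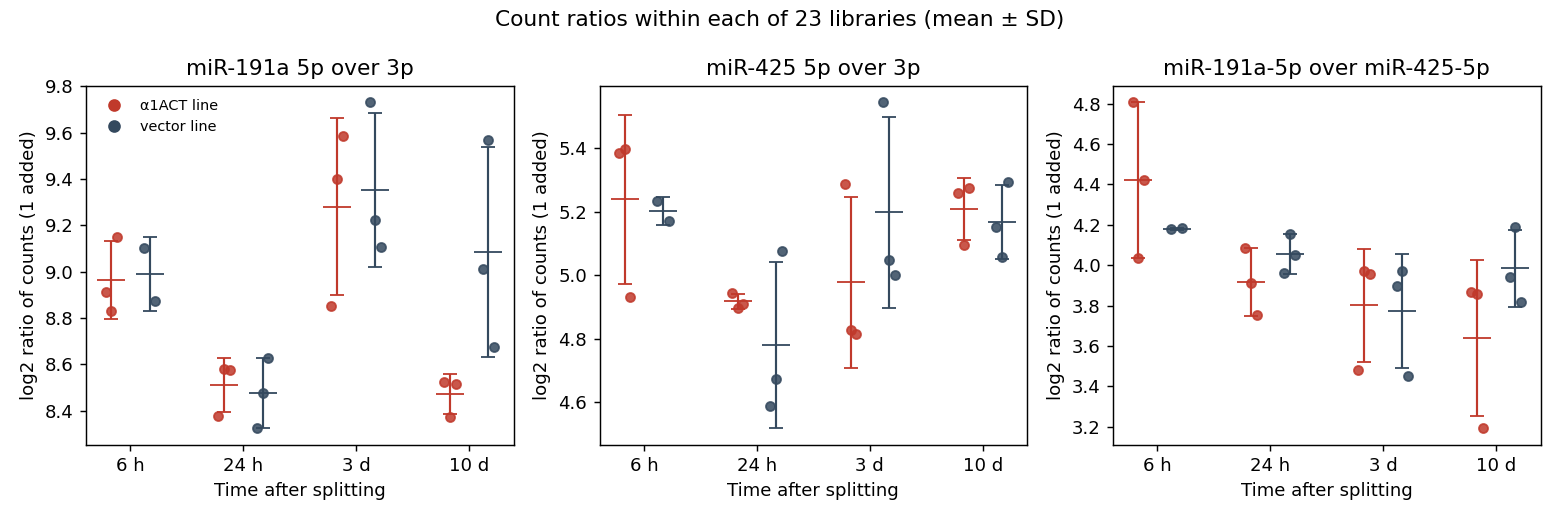
Log2 ratios of counts within each library (y axes, 1 added to both counts; axes do not start at 0) by time after splitting, 1 point per library, α1ACT left of vector, bars for mean and SD. The miR-191a 5p to 3p ratio at 3 d lies above that at 24 h in all 12 libraries compared.

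The levels of the guides of the neighbouring hairpins were compared library by library. Over the 23 libraries the log2 CPM of miR-191a-5p and miR-425-5p had Pearson r = 0.12 (permutation p = 0.583, adjusted over 12 relations 0.636) and Spearman rho = 0.23 (p = 0.294, adjusted 0.441). Without the 2 libraries farthest from the median of miR-191a-5p, r was 0.50, so the weak pooled value rests on those libraries. As deviations from the 8 group means the relation was negative, with r = −0.57 (permutation p = 0.00423, adjusted 0.0169), rho = −0.62 (p = 0.00204, adjusted 0.0235) and r = −0.40 without the 2 farthest. Deviations within a group sum to 0, so these p-values are too small. Within the α1ACT line r was −0.28 (n = 12, permutation p = 0.389, adjusted 0.519), rho was −0.11 (p = 0.734, adjusted 0.801) and r was 0.33 without the 2 farthest libraries. Within the vector line r was 0.64 (n = 11, permutation p = 0.0327, adjusted 0.0785), rho was 0.58 (p = 0.066, adjusted 0.132) and r was 0.46 without the 2 farthest, and whether the lines differ in this was not tested. The 2 arms of miR-191a had r = −0.37 over all libraries (permutation p = 0.0848, adjusted 0.145), rho = −0.40 (p = 0.0578, adjusted 0.132) and r = −0.705 without the 2 farthest. As deviations from group means their r was −0.14 (permutation p = 0.533, adjusted 0.636). In the vector line the arms had r = −0.86 (permutation p = 0.0007, adjusted 0.0084), rho = −0.81 (p = 0.00392, adjusted 0.0235) and r = −0.72 without the 2 farthest. In the α1ACT line their r was −0.04 (permutation p = 0.907, also after adjustment), but −0.54 without the 2 farthest. Whether the lines differ in this was not tested. The 2 arms of miR-425 had r = 0.61 (permutation p = 0.00199, adjusted 0.0119) and rho = 0.51 (p = 0.0152, adjusted 0.0477), r = 0.45 without the 2 farthest, and r = 0.42 (adjusted 0.0948) as deviations from group means. As deviations their rho was 0.37 (permutation p = 0.0868, adjusted 0.149). By line their r was 0.72 in α1ACT (permutation p = 0.00773, adjusted 0.0232) and 0.49 in vector (p = 0.129, adjusted 0.194). Their rho was 0.69 in α1ACT (permutation p = 0.0159, adjusted 0.0477) and 0.28 in vector (p = 0.403, adjusted 0.537). Without the 2 farthest libraries r was 0.56 in α1ACT and 0.17 in vector. The permutations for all these relations shuffled libraries freely across times. Libraries of the same group were thus treated as independent, and the p-values can be too small for this reason as well.

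Likeness was measured as the SD over the 23 libraries of the log2 ratio between 2 entries, a small SD meaning a similar pattern. miR-151-3p was most like miR-191a-5p, with an SD of 0.12, then miR-125b-1-3p at 0.15 and miR-23b-3p at 0.17. By that measure miR-425-5p was 66th of 268. miR-16-5p was most like miR-425-5p with an SD of 0.15, then miR-146b-5p at 0.16 and miR-375-3p at 0.17, with miR-191a-5p 64th. miR-326-3p (0.23), miR-128-3p (0.24) and miR-10b-3p (0.26) were most like miR-191a-3p, whose own guide was 127th. miR-146b-5p (0.22), miR-24-3p (0.22) and miR-16-5p (0.22) were most like miR-425-3p, whose guide was 6th. These places depend on depth, since low counts raise the SD.

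As a qPCR reference, miR-191a-5p was of middling steadiness here. The SD of its log2 CPM over all libraries was 0.23, and it was 40th from the steadiest of 63 entries of at least 1000 CPM, whose median SD was 0.20, and 34th to 44th under the other scalings. miR-425-5p had an SD of 0.26, 82nd of 127 entries of at least 100 CPM. It was 62nd with upper-quartile scaling, 85th with RLE size factors and 87th with library totals. Among 18 miRNAs often used as references, all tested, miR-26a-5p was steadiest, with an SD of 0.13, and miR-345-5p least steady, with 0.70 at a mean of 7.02 CPM. Of these 18, 2 were called lower in the α1ACT line over the mean of the 4 times, miR-30c-5p (log2 fold change −0.28) and miR-25-3p (−0.18), beside 12.6% of all tested entries, and only miR-30c-5p was called with the doubtful vector pair exchanged or left out. In the α1ACT line at 10 d against 6 h 7 of 18 were called, 3 higher (miR-103-3p, miR-107-3p and miR-93-5p) and 4 lower (miR-191a-5p, miR-320-3p, miR-361-5p and miR-423-5p), with log2 fold changes between −0.58 and 0.37, beside 27.1% of all tested entries, and 4 were called with the pair exchanged and 6 with it left out. In the vector line 1 of 18 was called, miR-93-5p, at 0.45 (edgeR adjusted p = 0.0188), beside 11.9% of all tested entries. That call was lost with the pair exchanged (0.04, edgeR adjusted p = 0.993) and with it left out (0.20, 0.583). Their median log2 fold change was −0.04 in the α1ACT line and 0.11 in the vector line, beside −0.01 and 0.02 over all tested entries. Over the 4 times 10 of 18 were called in each line, beside 42.4% of entries in the α1ACT line and 36.8% in the vector line, and in the vector line 6 were called with the pair exchanged and 8 with it left out. In both lines these included miR-191a-5p, miR-425-5p, miR-16-5p, miR-103-3p, miR-107-3p, miR-151-5p, miR-320-3p and miR-423-5p. The others were miR-30e-5p and miR-361-5p in the α1ACT line and miR-24-3p and miR-93-5p in the vector line. A further list of 9 miRNAs was drawn up for host genes linked to growth. It held miR-25-3p, miR-93-5p, miR-106b-5p, miR-15b-5p, miR-16-5p, miR-103-3p, miR-107-3p, miR-26a-5p and miR-26b-5p. The hosts listed for miR-103-3p and miR-107-3p are Pank genes, and a link of any host to growth was not tested here. At 10 d against 6 h 3 of 9 were called in the α1ACT line, all higher, beside 27.1% of all tested entries (30 higher and 43 lower). In the vector line 1 of 9 was called, higher, beside 11.9% of all tested entries. The lists overlap, and these calls were already counted among the references. They were miR-103-3p, miR-107-3p and miR-93-5p in the α1ACT line and miR-93-5p in the vector line. These counts became 1 and 0 with the pair exchanged. At 24 h against 6 h, 1 was called, higher, in the α1ACT line, beside 10.4% of all tested entries, and 0 in the vector line, beside 1.12%. At 3 d against 24 h, 3 were called in each line, all higher, beside 22.3% of all tested entries in α1ACT and 23.8% in vector. With the pair exchanged, these steps called 0 and 2 in α1ACT, and 0 and 3 in vector. At 10 d against 3 d, 2 were called lower and 0 higher in the α1ACT line, where 32.7% of entries were called, and 3 lower and 1 higher in the vector line, where 25.3% were. With the pair exchanged no entry of this list was called at that step in the α1ACT line and 1, lower, in the vector line.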

How the data were processed

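Both tables hold read counts per mature miRNA entry, whole numbers with no normalization, as the authors deposited them; their names point to sRNAbench (413 entries) and Chimira (627 entries). RNA was enriched for miRNA and sequenced with an Illumina small RNA protocol, per the labels' protocols, and edgeR is named in the submitters' processing notes. No source here names the aligner, the versions or the build. The vector line was read from control columns and the α1ACT line from WT columns, which assumes that WT means the normal-length repeat. A further 12 columns per table were not used, and 1 sRNAbench entry with no name held 0 counts (0%).

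Counts were fitted with edgeR 4.0.16 in R 4.3.3 (filterByExpr, TMM, robust quasi-likelihood, 1 mean per group, all 23 libraries), with contrasts and Benjamini-Hochberg adjustment over 269 entries; adjusted p under 0.05 counted as called. Intervals are 1.96 SE. Log ratios had 1 added to both counts and exact permutation tests within time or line. Correlations were of log2 CPM, with 0.5 added to each count, and used 100000 permutations. The scripts were tested on simulated data. Alternatives were the Chimira table, other scalings and filters, DESeq2 1.42.0, limma-voom (limma 3.58.1), a replicate block, the doubtful vector pair exchanged or left out, and each library left out. All members were named, with the 3 entries most alike to each tested member, and reference miRNAs called in the planned comparisons or at the ends of the order of steadiness. The members and lists were chosen with earlier results of these data known. Totals per library ran from 448557 to 5070120 counts.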

Additional observations from a re-analysis of the deposited data

How the results depend on the processing

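No member was called between the lines in any of 700 alternative values. Of 1820 alternative log2 fold changes of the members, 85 changed sign, none of them called, and the largest main value among these was 0.203. Reversed line values with upper-quartile scaling were 0.00817 (miR-191a-5p), 0.066 (miR-425-5p) and 0.0436 (miR-425-3p) over the mean of the 4 times, 0.124 for miR-425-5p at 6 h, 0.064 for miR-191a-5p at 24 h and −0.00515 for miR-425-5p at 10 d. With library totals they were 0.0471 (miR-425-5p) and 0.0234 (miR-425-3p) over the mean, and 0.0578 for miR-191a-5p at 24 h. miR-425-5p at 10 d was −0.0251 with TMM computed without the members and −0.0047 with limma-voom. Upper-quartile scaling moved the median of all entries to 0.217 at 6 h, 0.116 at 24 h, 0.182 at 10 d against 6 h in the vector line and 0.253 at 10 d against 3 d in that line, and library totals moved it to 0.114 at 24 h, 0.109 at 10 d, and in the vector line to −0.0855 at 10 d against 6 h and −0.0932 at 10 d against 3 d. Upper-quartile scaling also moved it to −0.143 (α1ACT) and −0.139 (vector) at 3 d against 24 h and 0.128 (α1ACT) at 10 d against 3 d.

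For 10 d against 6 h, miR-191a-3p was 0.00321 with the Chimira table in the α1ACT line. In the vector line the Chimira table gave 0.217 (miR-191a-3p), −0.0341 (miR-425-5p) and −0.145 (miR-425-3p). The exchanged pair gave 0.319 (miR-191a-3p) and −0.022 (miR-425-3p), and upper-quartile scaling 0.128 (miR-191a-5p) and 0.0582 (miR-191a-3p). miR-425-5p at 24 h against 6 h in the α1ACT line, 0.01, was −0.0174 (upper-quartile), −0.0214 (mean CPM of at least 10) and −0.0221 (pair left out), and miR-191a-5p at 10 d against 3 d in the vector line was 0.0755 (upper-quartile). Over time in the α1ACT line the adjusted p was 0.0484 for miR-191a-3p and 0.15 for miR-425-5p with upper-quartile scaling. For miR-425-3p it was 0.0488 (TMM without the members), 0.0171 (mean CPM of at least 10), 0.0495 (DESeq2) and 0.0279 (limma-voom). Over time in the vector line miR-191a-5p had 0.092 (upper-quartile) and 0.0561 (pair exchanged). For the ratios, 10 d against 6 h gave −0.483 (Chimira) and −0.487 (pair exchanged) for miR-191a 5p over 3p, −0.487 and −0.493 for miR-191a-5p over miR-425-5p, and 0.0665 and 0.0152 for miR-425 5p over 3p, whose line difference was 0.0417 and 0.00329. The cause of these shifts was not tested.

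Leaving out single libraries gave these ranges. Between the lines, the mean of the 4 times ran from −0.0573 to 0.0198 for miR-425-5p and from −0.0824 to 0.0176 for miR-425-3p. miR-191a-5p at 24 h ran from −0.078 to 0.0199, and miR-425-5p from −0.166 to 0.0726 at 6 h and from −0.0967 to 0.131 at 10 d. At 10 d against 6 h, miR-191a-3p ran from −0.202 to 0.0587 in the α1ACT line and from −0.255 to 0.000136 in the vector line, and miR-191a-5p from −0.16 to 0.0418 in the vector line. miR-425-5p at 24 h against 6 h in the α1ACT line ran from −0.11 to 0.123. Adjusted p over time ran from 0.0215 to 0.155 for miR-191a-5p in the vector line (lost without 13 libraries), from 0.00681 to 0.132 for miR-425-5p and from 0.0312 to 0.157 for miR-425-3p in the α1ACT line. The ratio of miR-191a 5p over 3p at 3 d against 24 h ran from 0.73 to 0.932, the line difference of miR-191a-5p over miR-425-5p from −0.102 to 0.00221, and for miR-425 5p over 3p the line difference ran from −0.0404 to 0.042 and 10 d against 6 h from −0.109 to 0.00733.

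Counts of called entries moved with several settings. Over the mean of the 4 times 34 became 19 (Chimira), 18 (exchanged) or 16 (left out). At 10 d against 6 h in the vector line 32 became 0 (Chimira and exchanged), 11 (left out) or 60 (upper-quartile), and over time in that line 99 became 56 (Chimira) or 46 (exchanged). The single-time line counts ran from 0 to 7 at 6 h, 0 to 3 at 24 h, 0 to 6 at 3 d and 0 to 11 at 10 d. Among neighbouring times, the pair exchanged gave 16 for 28 (24 h against 6 h, α1ACT) and 44 for 68 (10 d against 3 d, vector), and 3 (24 h against 6 h, vector) became 0 with the pair exchanged or left out.

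The replicate numbers did not pair the libraries: of 11 same-numbered pairs 3 had a correlation of deviations over 0.1, with a range of −0.56 to 0.57. With the replicate block the change of miR-191a-5p at 10 d against 6 h in the α1ACT line was −0.56, its line difference over the mean of the 4 times −0.0799, and the adjusted p of miR-425-3p over time in the α1ACT line 0.0331; the count over the mean of the 4 times was 38. Depth limits miR-191b and the passenger arms, and groups of 2 or 3 libraries limit all intervals.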
